A study of Mus musculus with 2 samples.

Results

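The motifs of NRL, of the small MAF proteins and of NFE2-type dimers were described in single-cell chromatin accessibility data of embryonic mouse retina. The 8 motifs were taken by name from the 579 transcription factor motifs of the deposited tables: NRL, MAFF, MAFG, MAFK, MAF::NFE2, MAFG::NFE2L1, Nfe2l2 and NFE2. The data were 2 replicate libraries (n = 2) of whole wild-type retina at E14.5 (embryonic day), made with the 10x Genomics single-cell assay for transposase-accessible chromatin. All samples belong to 1 group, with no treatment and no other genotype. Separate animals for the replicates are not stated in the labels, so errors and p-values below reflect the spread of these libraries alone and may be technical. Each value counts transposase cuts in all peaks that hold a sequence pattern. It is accessibility, not binding by the factor or its expression, and the tables hold no transcripts against which the tissue label could be checked.

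NRL is a large MAF protein of the basic leucine zipper class. It directs photoreceptor precursors to the rod fate and acts on rod genes together with CRX, a homeodomain factor of photoreceptors related to OTX2. The small MAF proteins MAFF, MAFG and MAFK lack an activation domain of their own and pair with NFE2, NFE2L1, NFE2L2 or BACH proteins. NFE2 is best known in red cells and platelets, NFE2L2 in the response to oxidative stress and NFE2L1 in the supply of proteasome subunits. MAF proteins read a core written TGCTGAC. It overlaps the core TGACTCA of NFE2 and AP-1 dimers and the antioxidant type TGACNNNGC. CRX reads TAATCC.

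The motif matrices themselves were not used here, so these words were looked up, on both strands, in RefSeq promoters of the mouse build GRCm38.p6 to show the kind of DNA the motifs stand for. Promoters ran from 250 bases before to 50 after a gene start. TGCTGAC was found in 4.67% of the 32851 promoters, TGACTCA in 5.20%, TGACNNNGC in 12.4% and TAATCC in 7.06%. The first and the second of these words occurred together in 0.393%. The stretches below were chosen after their matches were seen, from genes known as targets of these factors or of their partners, and no peak was tied to them. Capitals mark matches on either strand. All are written 5′ to 3′ on the strand of the gene and end before its start.
Pde6b, rod phosphodiesterase subunit, chr5:108388293-108388372, plus strand: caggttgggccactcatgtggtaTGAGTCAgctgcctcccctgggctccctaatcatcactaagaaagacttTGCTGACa
Cryaa, lens alpha-crystallin, chr17:31677811-31677851, plus strand: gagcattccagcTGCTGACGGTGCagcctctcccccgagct
Srxn1, antioxidant enzyme sulfiredoxin, chr2:152105464-152105503, plus strand: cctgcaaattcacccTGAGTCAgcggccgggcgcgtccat
Crx, the photoreceptor factor, chr7:15879966-15880065, minus strand: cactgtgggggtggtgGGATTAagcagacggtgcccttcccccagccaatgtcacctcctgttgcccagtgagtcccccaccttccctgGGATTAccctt
In Pde6b the NFE2-type core and the MAF core lay apart, while in Cryaa the MAF core ran into the antioxidant type, with TGAC shared. A match is a description of these letters, not of a bound site.

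Replicate 1 held 2422 barcodes and replicate 2 held 3033. Kept cells had at least 300000 motif counts and more than the same barcode had in the other library, which left 890 and 1051 cells with medians of 3519151 and 3523871 counts. The libraries shared 1828 barcodes. Of the kept cells, 872 and 925 had a copy in the other library, with a median of 1.77% and 0.789% of the kept copy's total, and 18 and 126 did not. Results without shared barcodes could therefore not be had for every class of cells.

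The motifs differed widely in level. NFE2 was lowest at 5.20 ± 0.0985 per 100000 motif counts (SD, n = 2), with 5.13 in replicate 1 and 5.27 in replicate 2. NRL followed at 6.80 ± 0.0501, with 6.76 and 6.83. MAFG stood at 12.4 ± 0.477, with 12.1 and 12.8. Next came Nfe2l2, at 13.4 and 14.4, and MAFK, at 13.6 and 14.4, whose values overlapped. MAF::NFE2 stood at 14.8 and 14.9 and MAFF at 18.5 and 19.3. MAFG::NFE2L1 stood far above them all at 2573 and 2555, the third most frequent motif in each library. Apart from MAFK and Nfe2l2, no neighbours in this order overlapped between libraries, though 2 values against 2 allow no exact p below 0.333. The median of all motifs was 41.2 and 40.9, so 7 of the 8 were rare patterns. Relatives outside the 8 lay above these 7 and below that median: BACH2 at 20.3 and 20.5 and Bach1::Mafk at 28.1 and 29.1. Of the photoreceptor motifs, Crx at 11.0 and 10.6 was of like level to MAFG, while OTX1 stood at 127.1 and 127.8 and OTX2 at 333 and 332. These levels follow how many peaks hold a pattern and say nothing of the amount of a factor. None of the 8 had the same counts as any other motif in all kept cells.

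The 2 libraries differed little for NRL, with a log2 ratio of replicate 1 to replicate 2 of −0.015, against a median absolute ratio of 0.021 over all motifs. The small MAF motifs were all lower in replicate 1, MAFG by −0.078, MAFK by −0.077 and MAFF by −0.061, and Nfe2l2 was lower by −0.10. MAF::NFE2 differed by −0.014 and NFE2 by −0.039. These ratios set a single library against another and were not tested.

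Variability across cells was given as the coefficient of variation of depth-scaled counts in excess of counting noise. Low counts were mostly even: in barcodes left out, 90.9% of the member values from 1 to 29 in replicate 1 and 88.0% in replicate 2 were even numbers. In the kept cells, whose counts are mostly far higher, 50.1% and 51.7% of the member values were even. Noise was taken for counts that arrive in pairs, and the excess CV depends on this choice. NFE2 varied most, with an excess CV of 13.6% in replicate 1 and 9.59% in replicate 2, at ranks 18 and 36 of 579. MAFG had 8.15% and 7.72%, MAFK 8.03% and 6.71%, MAF::NFE2 7.90% and 6.14%, and Nfe2l2 7.01% and 5.96%. MAFF stood at 5.10% and 5.44%. NRL stood at 4.94% and 6.18%, at ranks 291 and 159, beside a median over all motifs of 4.96% and 4.84%. With noise of single counts NRL stood at 9.46% and 10.6%, above the median of 6.19% and 6.27%. Its place near the median in replicate 1 therefore rests on the noise taken. In replicate 2 it lay above the median with either noise. MAFG::NFE2L1 varied least, by 2.09% and 1.96%. Crx had 9.19% and 10.0%.

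**Figure D1:**
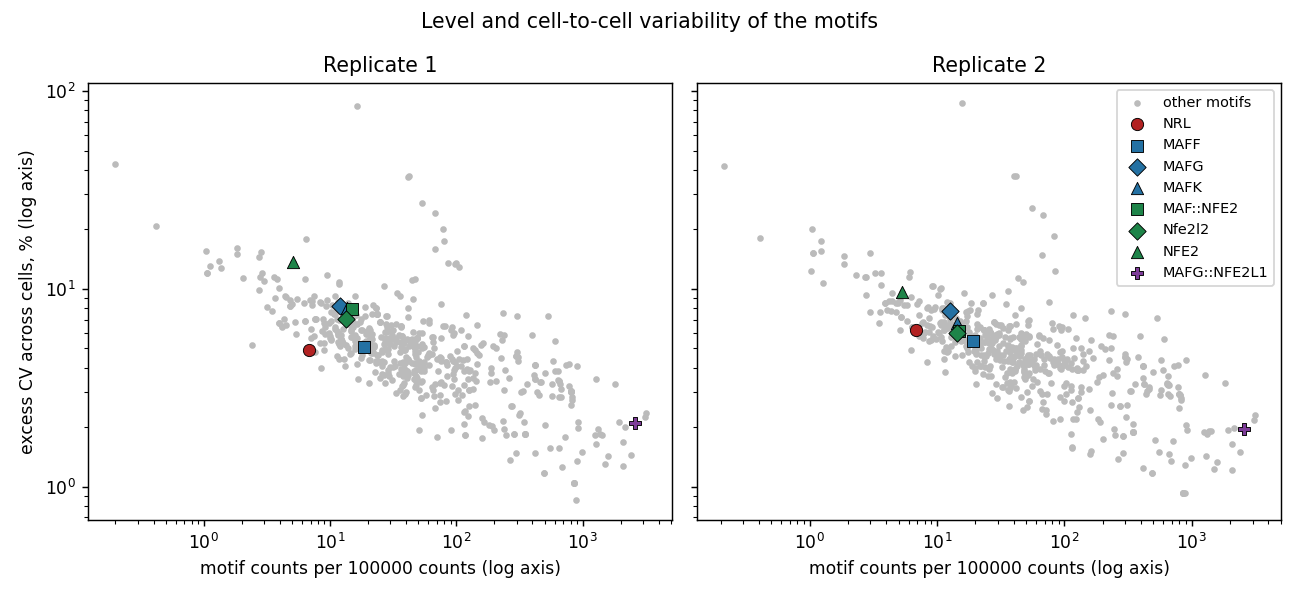
Excess coefficient of variation across kept cells (%, log axis) against the level of each motif (counts per 100000 motif counts, log axis), 1 panel per replicate; coloured symbols are the 8 motifs, grey points the others. NFE2 lies high for its level, at 13.6% and 9.59%, and NRL is at 4.94% and 6.18%, while MAFG::NFE2L1 is frequent and even.

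The counts behind a single cell were small. An NRL count had a lowest value of 12, a median of 238 and a highest value of 1699 in replicate 1, and of 8, 237 and 1183 in replicate 2. Its share ran from 3.02 over 6.78 to 11.1 per 100000 in replicate 1 and from 2.30 over 6.78 to 11.0 in replicate 2. Counting noise in pairs gave NRL a CV of 11.4% and 12.3%. For MAFG noise was 8.59% and 9.01%, and for MAFG::NFE2L1 it was 0.585% and 0.635%. NFE2 was at 0 in 1 cell of replicate 2 and in 0 cells of replicate 1; the other 7 motifs had counts in every kept cell. The low counts limit what correlations across cells can show, for NRL and NFE2 above all.

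Across cells, the 8 motifs did not form 1 group. The small MAF motifs varied together: with depth regressed out of the log2 shares, Pearson r was 0.77 and 0.73 for MAFF with MAFK, 0.72 and 0.70 for MAFG with MAFK, and 0.65 and 0.66 for MAFF with MAFG, in 890 and 1051 cells of the replicates. MAF::NFE2 and Nfe2l2 formed a second pair, with r of 0.53 and 0.43. Between these sets r lay from −0.098 to 0.13. These cells share library, depth and peaks, and one cut can enter the counts of several like patterns, so the values are descriptions with no p.

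NFE2 stood with neither set, although its name links it to the second: its r with MAF::NFE2 and Nfe2l2 lay from −0.059 to 0.087, and with the small MAF motifs from 0.080 to 0.17. Its nearest motifs outside the 8 were AP-1 dimers and a relative of them, JDP2 (0.50 and 0.44), JUND (0.32 and 0.38) and FOSL1::JUND (0.32 and 0.30). These were not typical of AP-1: over 21 such motifs r with NFE2 lay from −0.076 to 0.50, with a median of 0.11. Outside the 8, the pair of MAF::NFE2 and Nfe2l2 was nearest to the BACH motifs, whose proteins are repressors that pair with small MAF. MAF::NFE2 had r of 0.50 and 0.44 with BACH2 and of 0.46 and 0.37 with Bach1::Mafk, and Nfe2l2 had 0.46 and 0.34 with BACH2 and 0.51 and 0.38 with Bach1::Mafk. TEAD3, a motif of the Hippo pathway, came next for both, at 0.29 and 0.26 for MAF::NFE2 and at 0.29 and 0.27 for Nfe2l2. BACH2 was also the nearest motif outside the 8 to MAFF (0.35 and 0.27) and MAFK (0.39 and 0.36). FOXL1 and MEIS1 followed for MAFF, and Sox2 and RHOXF1 for MAFK.

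MAFG and MAFG::NFE2L1 followed some of the most frequent patterns. MAFG::NFE2L1 had r of 0.89 and 0.88 with ZNF354C, 0.88 and 0.86 with MEIS1, and 0.85 and 0.84 with MZF1. These motifs ranked 2, 8 and 1 of 579 by level in both libraries. MAFG had its 3 nearest motifs outside the 8 among the same ones, MEIS1 (0.51 and 0.36), ZNF354C (0.53 and 0.34) and MZF1 (0.52 and 0.34). Its r with MAFK (0.72 and 0.70) and MAFF (0.65 and 0.66) was higher.

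NRL had no near neighbour. Over the 578 other motifs its r lay between −0.15 and 0.14 in the 2 libraries. Outside the set of NRL, MAF and NFE2 motifs, HLF (0.11 and 0.13), BACH2 (0.12 and 0.12) and DBP (0.11 and 0.12) ranked closest. FOSL1::JUND(var.2) (0.078 and 0.096) and USF1 (0.12 and 0.048) followed. Within the set, MAFF (0.12 and 0.13) had a higher mean r with NRL than HLF had. MAFK (0.11 and 0.12) lay between DBP and FOSL1::JUND(var.2) by mean r. With the CRX/OTX motifs r ranged from −0.066 to 0.052, with the small MAF motifs from 0.044 to 0.13, and with MAF::NFE2, Nfe2l2 and NFE2 from −0.082 to 0.050. At counts this low such weak values are no finding in either direction. The CRX/OTX motifs had r of 0.28 to 0.61 among themselves.

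**Figure D2:**
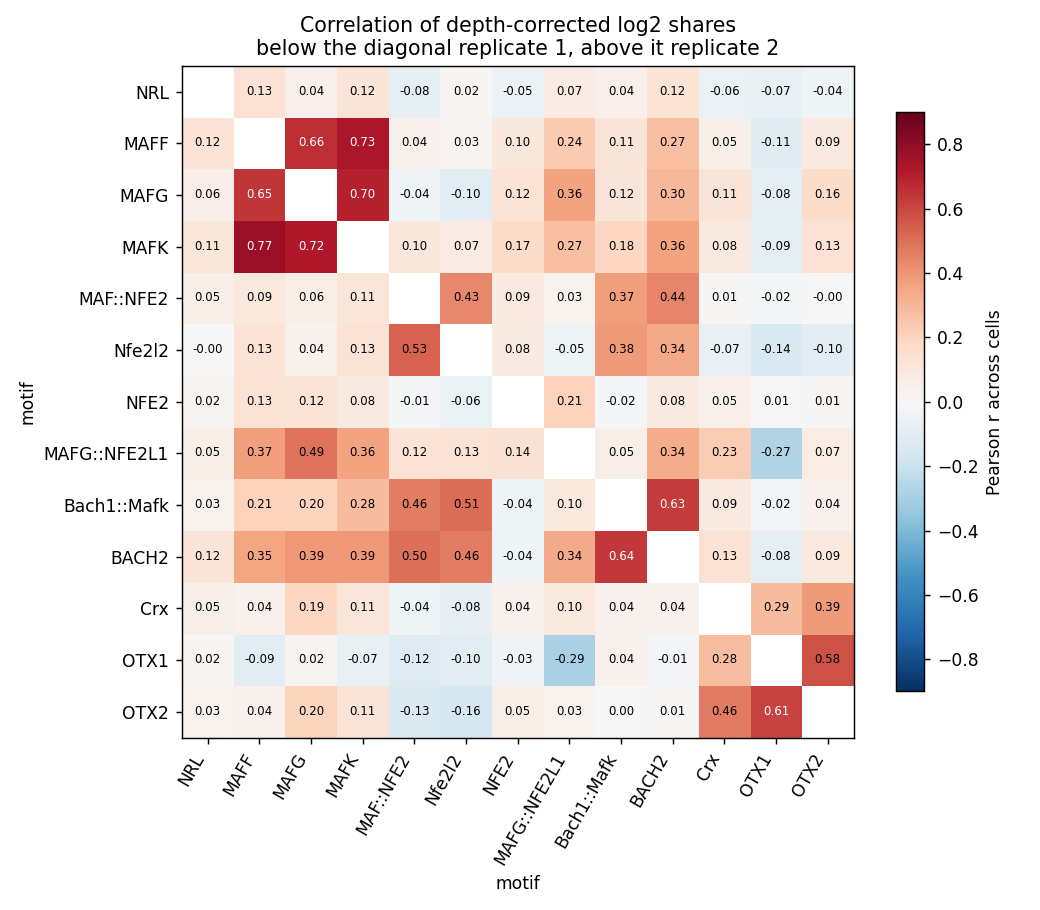
Pearson r across kept cells between depth-corrected log2 shares, replicate 1 below and replicate 2 above the diagonal; both axes list the 8 motifs, 2 relatives and the CRX/OTX motifs. The small MAF motifs (0.65 to 0.77) and the pair MAF::NFE2 and Nfe2l2 (0.53 and 0.43) stand out as separate blocks, the second with the BACH motifs, and the row of NRL is pale.

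To ask where in the retina these patterns were open, cells were divided by 7 lists of other motifs, none of which held any of the 8. A cell went to the list with its highest score where that score passed 1 SD of its library, and otherwise to the rest. The lists were CRX, OTX1 and OTX2 of photoreceptor precursors, POU4F motifs of ganglion cells, proneural motifs of NEUROD, NEUROG and ATOH factors, SOX and TEAD motifs of progenitors, ONECUT motifs of horizontal and ganglion cells, and SP/KLF motifs of promoters. Such classes are ranges of a score, not cell types: 100 cells of replicate 1 and 117 of replicate 2 lay within 0.1 SD of the limit. Replicate 1 gave 73 CRX/OTX-high, 111 POU4F-high, 87 proneural-high, 62 SOX-high, 121 TEAD-high, 52 ONECUT-high, 34 SP/KLF-high and 350 remaining cells. Replicate 2 gave 85, 118, 100, 86, 119, 59, 39 and 445. Motifs found in the same peaks share counts, so a class cut from one list is not independent of the rest of the table. Counts were summed per library and class and tested with edgeR's quasi-likelihood test against the remaining cells. The library entered as a block, the scaling was TMM, and p-values were adjusted over all 579 motifs at a threshold of 0.05.

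CRX/OTX-high cells were compared with the rest to see whether the rod factor's motif was more open where the motif of its partner was. The difference was small, and the libraries did not agree by score: NRL had an r across cells of 0.043 and −0.071 with the CRX/OTX score. NRL stood at 6.98 in CRX/OTX-high and 6.78 in remaining cells of replicate 1, per 100000 counts, and at 6.86 and 6.79 in replicate 2, as log2 differences of 0.041 and 0.015. The fitted log2 fold was 0.048 ± 0.017 (SE), with a 95% interval from 0.0080 to 0.088 and an edgeR adjusted p of 0.0355, on a scale that TMM raised by 0.020 for this class. NRL passed in 1 of 10 alternative settings, with adjusted p from 0.0208 to 0.972 among them, and its call is therefore not relied on. For comparison, Crx itself, on which the class was cut, was higher by 0.34. NRL ranked 186 of 579 by fold. From the rest to the CRX/OTX-high cells, the log2 share of NRL against the small MAF motifs changed by −0.021 ± 0.032 (SD, n = 2). Against the NFE2-type motifs it rose by 0.069 ± 0.016. This second change was not particular to these cells. It was 0.082 ± 0.040 in POU4F-high, 0.062 ± 0.015 in SP/KLF-high and 0.054 ± 0.0067 in ONECUT-high cells. In proneural-high, SOX-high and TEAD-high cells it was −0.0040, −0.035 and −0.026.

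The other members parted in these cells. MAFG was higher, at 12.7 against 11.7 per 100000 in replicate 1 and 13.4 against 12.5 in replicate 2, and its log2 fold of 0.13 ± 0.018 SE had an edgeR adjusted p of 0.000311. The log2 differences in shares, without TMM, were 0.11 and 0.11. Nfe2l2 was lower, with 12.9 against 13.5 and 13.9 against 14.54 (−0.048 ± 0.017 on the TMM scale, edgeR adjusted p = 0.0347), and so was MAF::NFE2 (−0.033 ± 0.013, edgeR adjusted p = 0.0465). MAF::NFE2 stood at 14.3 against 15.0 and at 14.7 against 15.1, and its log2 fold was −0.013 without replicate 1 and −0.054 without replicate 2. MAFF (0.031), MAFK (0.048) and NFE2 (0.018) did not pass. MAFG::NFE2L1 passed at 0.022 with TMM scaling and not without it (0.0021, edgeR adjusted p = 0.933). In all, 3 of 8 motifs were called higher and 2 lower, against 71.7% of all 579 motifs called in either direction, 44.9% higher and 26.8% lower, so the count of calls is near or below the background. The share of calls that were higher fell from 62.7% to 47.1% of calls without TMM. With no replicate block 229 of all 579 motifs were called, and of the 8 only MAFG::NFE2L1 stayed called. MAFG then stood at 0.13 with an edgeR adjusted p of 0.0929. These cells were shallower than the rest, with 0.772 and 0.760 times its median total; in cells thinned to 1000000 counts NRL (0.074), MAFG (0.089) and Nfe2l2 (−0.069) were called, and MAF::NFE2 (−0.045, edgeR adjusted p = 0.0827) and MAFG::NFE2L1 (0.0011, edgeR adjusted p = 0.604) were not. Of the comparison lists, all 6 relatives of CRX with the same homeodomain type were higher (median 0.14, against 0.018 over all motifs). The class was cut on motifs of this type, so their rise is no independent result. Of 21 AP-1 motifs 13 were lower and 1 higher (median −0.049). This was not particular to these cells. Of the same 21 motifs 14 were lower in ONECUT-high, 12 in POU4F-high and 11 in SP/KLF-high cells. In proneural-high, TEAD-high and SOX-high cells 5, 1 and 0 were lower. Of 5 nuclear receptor motifs of photoreceptors 1 was higher and 1 lower in CRX/OTX-high cells. Of the 2 BACH relatives Bach1::Mafk passed at 0.031, and BACH2 (0.032, edgeR adjusted p = 0.0637) did not.

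**Figure D3:**
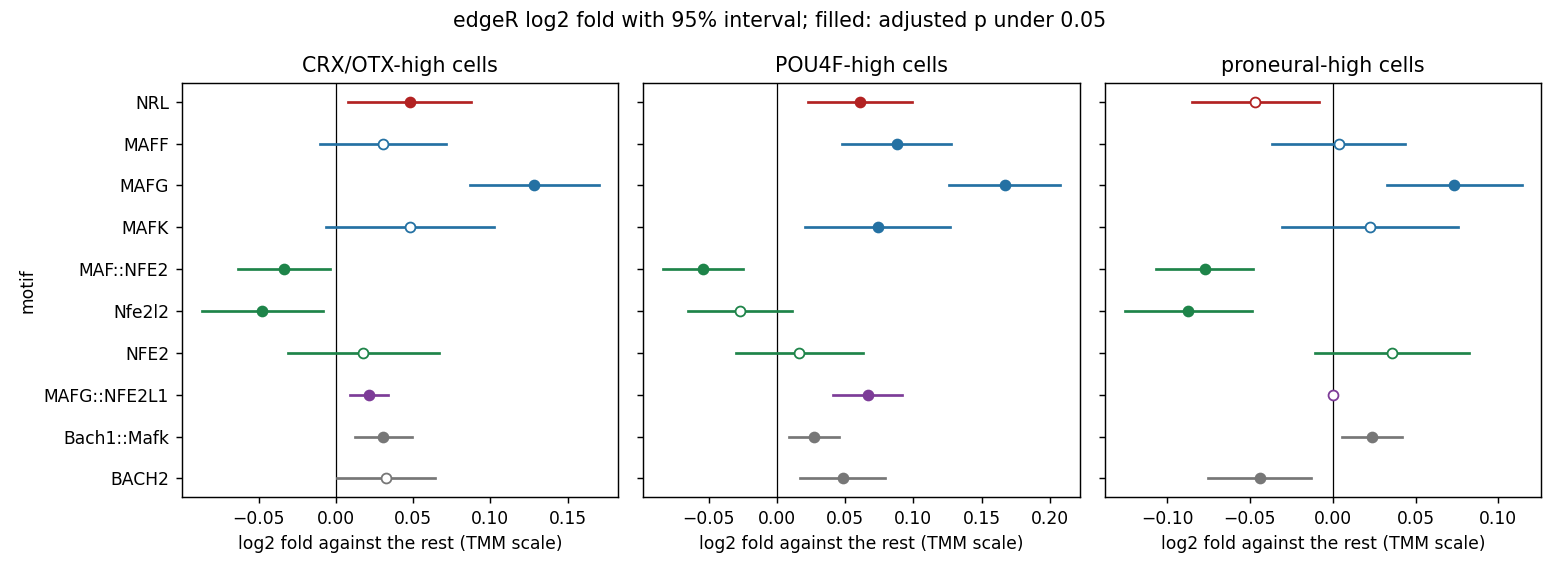
Log2 folds of the 8 motifs and 2 relatives in CRX/OTX-high, POU4F-high and proneural-high cells against the rest (edgeR, TMM scale), with 95% intervals; filled points have an adjusted p under 0.05, and MAFG::NFE2L1 has no interval in the proneural-high panel. MAFG lies to the right in all 3 panels (0.13, 0.17 and 0.073), MAF::NFE2 to the left (−0.033, −0.054 and −0.077), and NRL changes side.

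POU4F-high cells, the range in which ganglion cell motifs were high, had all 3 small MAF motifs above the remaining cells in both libraries. So had SOX-high and TEAD-high cells, where these motifs were not called as fitted here. In POU4F-high cells of replicate 1 MAFG stood at 13.1 per 100000 counts against 11.7 in the remaining cells. In replicate 2 it stood at 13.6 against 12.5. The log2 fold came to 0.17 ± 0.018 SE, with an edgeR adjusted p of 6.64e-05, and it passed in all 10 alternatives, which gave 0.15 to 0.21. MAFF rose by 0.088 ± 0.017 (edgeR adjusted p = 0.00233) and MAFK by 0.074 ± 0.023 (edgeR adjusted p = 0.0204). MAFG::NFE2L1, at 2646 and 2623 against 2559 and 2546, rose by 0.067 ± 0.011 (edgeR adjusted p = 0.000856) and passed in 10 of 10 alternatives. MAF::NFE2 fell by 0.054 ± 0.013 (edgeR adjusted p = 0.00575), with 14.3 and 14.3 against 15.0 and 15.1. Nfe2l2 (−0.027) and NFE2 (0.017) did not pass. NRL was called at 0.061 (edgeR adjusted p = 0.0114), but it passed in 3 of 10 alternatives and its log2 differences in shares were 0.014 and 0.068. Its fold was 0.033 without replicate 2. The 8 motifs had 5 calls higher and 1 lower, beside 68.7% of all motifs called, 40.2% higher and 28.5% lower. The share of calls that were higher was 58.5% with TMM and 41.1% without it. With no replicate block MAFG and MAFG::NFE2L1 were called, and MAFF had an edgeR adjusted p of 0.224. The score of the POU4F list had an r across cells of 0.63 and 0.63 with MAFG::NFE2L1, of 0.33 and 0.28 with MAFG and of −0.0068 and 0.12 with NRL. MAFG::NFE2L1 also had an r of 0.34 and 0.34 with the ONECUT score and of −0.59 and −0.56 with the SP/KLF score.

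In proneural-high cells, where E-box patterns of neuron-forming factors were high, the pair of MAF::NFE2 and Nfe2l2 was lower. Nfe2l2 stood at 12.8 per 100000 counts against 13.5 in replicate 1 and at 13.6 against 14.54 in replicate 2, and its log2 fold of −0.087 ± 0.017 SE had an edgeR adjusted p of 0.00403. MAF::NFE2 stood at 14.1 against 15.0 and at 14.4 against 15.1 (−0.077 ± 0.013, edgeR adjusted p = 0.00191). Only 7 of the 579 motifs had a lower fold than Nfe2l2 and 13 a lower one than MAF::NFE2. MAFG was higher by 0.073 (edgeR adjusted p = 0.0113). NRL stood at 6.47 against 6.78 and at 6.66 against 6.79 (−0.047 ± 0.017, edgeR adjusted p = 0.0568). It did not pass here, but did in 4 of 10 alternatives. MAFF, MAFK, NFE2 and MAFG::NFE2L1 did not pass. BACH2 was lower by −0.044 and Bach1::Mafk higher by 0.023 (edgeR adjusted p = 0.0323 and 0.0449), although both varied with MAF::NFE2 and Nfe2l2 over all cells. The 8 motifs thus had 1 call higher and 2 lower beside 39.9% of all motifs, 19.9% higher and 20.0% lower. With no replicate block 0 of the 8 and 38 of all 579 motifs were called (edgeR adjusted p = 0.106 for MAF::NFE2 and 0.745 for Nfe2l2).

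The progenitor classes gave few calls. In SOX-high cells NFE2 was higher, at 5.32 against 5.10 per 100000 in replicate 1 and at 5.66 against 5.24 in replicate 2. Its log2 fold was 0.080 ± 0.021 (SE; edgeR adjusted p = 0.0207), the third highest of all motifs, and it was called in 6 of 10 alternatives. With all barcodes kept its sign turned (−0.019), and with no replicate block its edgeR adjusted p was 0.282. At a minimum total of 1000000 counts 4 of the 8 were called higher, MAFF (0.018), MAFK (0.031) and Nfe2l2 (0.018) besides NFE2. With the promoter score regressed out 2 were higher and 1 lower. Those settings called 330 and 235 of all 579 motifs in either direction, against 168 as fitted here. As fitted here the other 7 motifs did not pass, where 29.0% of all motifs were called, 10.4% higher and 18.7% lower. In TEAD-high cells 0 of the 8 were called by edgeR and 0 by DESeq2, beside 19.0% of all motifs in edgeR, 5.01% higher and 14.0% lower. At a minimum total of 1000000 counts 5 of the 8 were called higher there, MAFF (0.017), MAFK (0.039), MAF::NFE2 (0.027), MAFG::NFE2L1 (0.011) and Nfe2l2 (0.039). With the promoter score regressed out 2 were. Those settings called 289 and 227 of all 579 motifs in TEAD-high cells in either direction, against 110 as fitted here. In the fit reported here unadjusted edgeR p-values were under 0.05 for 1 of the 8 in TEAD-high cells, Nfe2l2. Nfe2l2 (0.039, edgeR adjusted p = 0.167), MAFK (0.047, edgeR adjusted p = 0.216) and MAF::NFE2 (0.027, edgeR adjusted p = 0.199) had the highest values. The TEAD score had an r of 0.26 and 0.28 with Nfe2l2, of 0.25 and 0.21 with MAF::NFE2 and of 0.15 and 0.27 with NFE2 across cells. With the SOX score NFE2 had an r of 0.21 and 0.31. The share of calls that were higher moved with TMM from 54.7% to 35.7% in SOX-high and from 48.4% to 26.4% in TEAD-high cells.

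In ONECUT-high cells MAFG (0.12 ± 0.018 SE, edgeR adjusted p = 0.000682) and MAFG::NFE2L1 (0.051) were higher and MAF::NFE2 (−0.057 ± 0.013, edgeR adjusted p = 0.00577) lower. MAFG stood at 12.9 and 13.1 per 100000 there. The 3 calls stood beside 63.7% of all motifs, 38.2% higher and 25.6% lower. With no replicate block only MAFG::NFE2L1 of these was called, and without TMM the share of calls that were higher fell from 59.9% to 43.1%. NRL was at 0.019 (edgeR adjusted p = 0.374).

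SP/KLF-high cells, whose median total was 0.501 and 0.637 times that of the rest, were low for 5 of the 8. MAFK fell by 0.092 ± 0.025 (SE; edgeR adjusted p = 0.0117), with 12.1 against 13.5 per 100000 counts in replicate 1 and 13.5 against 14.2 in replicate 2. NFE2 fell by 0.082 ± 0.024 (edgeR adjusted p = 0.0159), MAFG by 0.081, MAFF by 0.053 and MAFG::NFE2L1 by 0.034. The value of MAFF was −0.028 without replicate 1 and −0.079 without replicate 2. MAF::NFE2 (−0.021), Nfe2l2 (−0.011) and NRL (0.023) did not pass. In all 67.7% of motifs were called, 37.7% higher and 30.1% lower; higher calls were 55.6% of calls with TMM and 41.7% without. With no replicate block 1 of the 8 was called, MAFG::NFE2L1, and in cells thinned to an equal depth 2 of the 8 were, NFE2 and MAFG::NFE2L1.

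**Figure D4:**
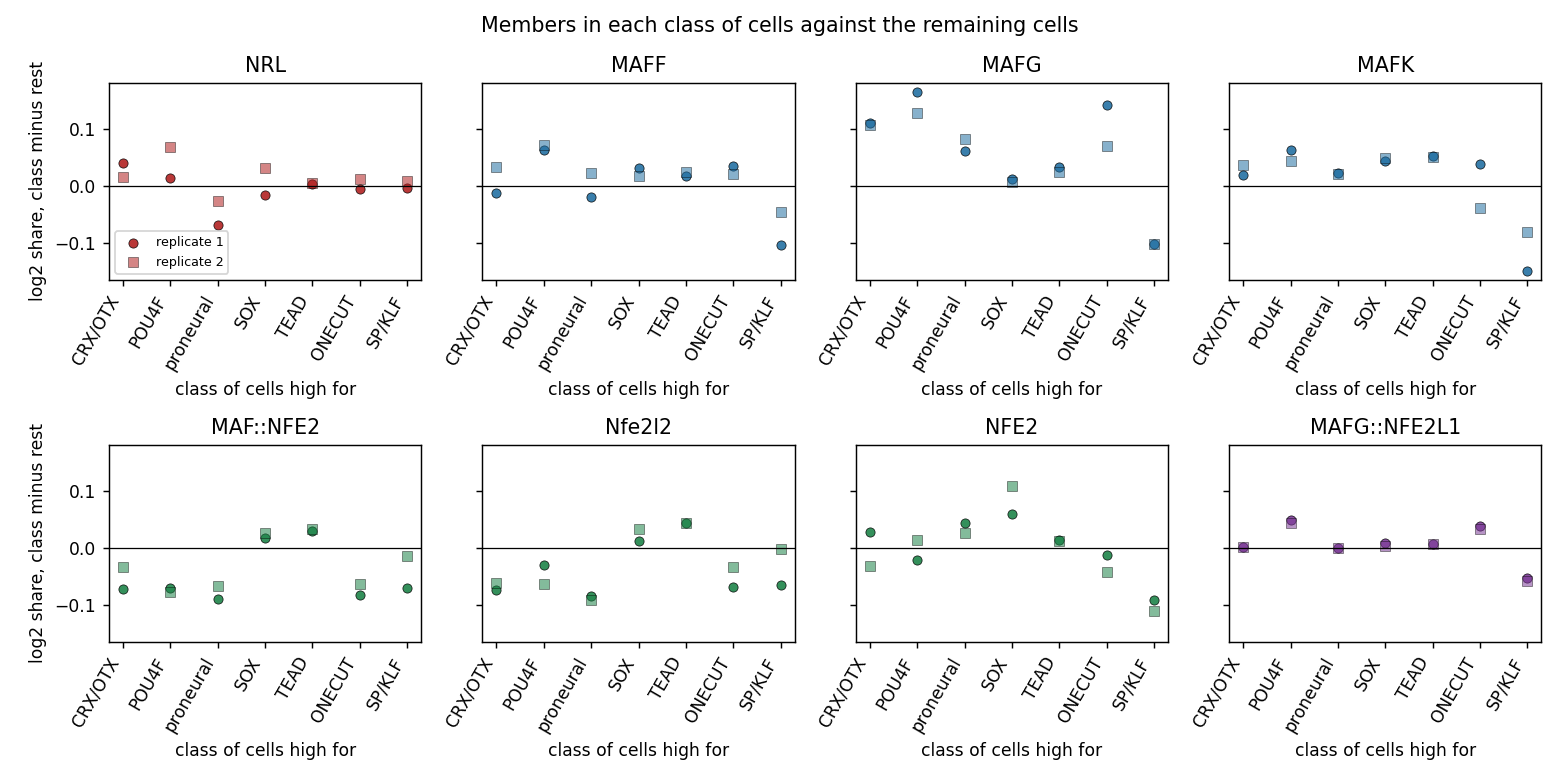
Log2 difference in share between each class of cells and the remaining cells, 1 panel per motif, circles for replicate 1 and squares for replicate 2 (shares without TMM). NRL stays between −0.068 and 0.068 in every class, MAFG is at its highest in POU4F-high cells (0.17 and 0.13) and MAF::NFE2 and Nfe2l2 lie below 0 in proneural-high cells (−0.066 to −0.092).

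Across the 7 classes the log2 differences of NRL from the rest ran from −0.068 to 0.041 in replicate 1 and from −0.027 to 0.068 in replicate 2. Those of MAFG ran from −0.10 to 0.17 and from −0.10 to 0.13, and those of MAFK from −0.15 to 0.064 and from −0.080 to 0.051. All classes were set against the same remaining cells, so the comparisons are not independent of each other.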

How the data were processed

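The deposited tables hold counts of transposase cuts per motif and cell barcode; per the file headers they were written by software of version 1.1.0, and a cut counts for every motif of its peak. Cell Ranger and the mouse build mm10 are listed, with no role, per the submitters' processing notes, and no peak caller is stated. Barcodes with a total under 300000, or no higher than in the other library, were left out. Shares are per 100000 motif counts. The pseudocount for log2 shares was 0.5. Depth was regressed out before scores and correlations.

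Counts were summed per library and class (16 sums, 7 residual degrees of freedom) and tested with edgeR 4.0.16 in R 4.3.3, with TMM and the library as a block. The block pairs classes of the same library by construction. DESeq2 1.42.0 was an alternative. The tests were tested on simulated data. Members and lists were chosen with earlier results of these data known, and counting noise in pairs was chosen after the data were seen. Nearest motifs were named by mean r, 5 for NRL and 3 for the others, leaving out the 8 motifs themselves. Of the comparison motifs, 1 is not reported here.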

Additional observations from a re-analysis of the deposited data

How the results depend on the processing

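Counts of motifs called moved by more than 1.5 times in these settings. With no replicate block they were 229 for CRX/OTX-high (415 with it), 192 for POU4F-high (398), 38 for proneural-high (231), 31 for SOX-high (168), 4 for TEAD-high (110), 161 for ONECUT-high (369) and 236 for SP/KLF-high cells (392). With all barcodes kept they were 21, 109, 13, 10, 4 and 8 for the first 6 classes in that order. A minimum total of 1000000 gave 428 proneural-high, 330 SOX-high and 289 TEAD-high calls. A score limit of 1.5 SD gave 137 proneural-high, 61 TEAD-high and 245 ONECUT-high calls. Thinning to 1000000 counts gave 94 SOX-high and 25 TEAD-high calls. TEAD-high calls were 43 without the deepest 5% of cells and 227 with the promoter score regressed out. Among motifs called as reported, the sign turned with all barcodes for NRL in CRX/OTX-high (−0.0074), NFE2 in SOX-high (−0.019) and MAF::NFE2 in ONECUT-high cells (0.13). With the promoter score regressed out MAFG::NFE2L1, not called as reported, turned sign and passed in proneural-high (−0.0027, edgeR adjusted p = 0.0168) and SOX-high cells (−0.0046, edgeR adjusted p = 0.00235). Motifs not called as reported turned sign in further settings, among them with all barcodes Nfe2l2 in POU4F-high (0.041) and ONECUT-high cells (0.095) and NFE2 in ONECUT-high cells (0.12). The cause was not tested. With single counts as the noise, chosen after the data were seen, the excess CV of NRL was 9.46% and 10.6%, against a median motif at 6.19% and 6.27%. In other settings, that noise among them, the mean excess CV of each of the 8 motifs was checked against its SD between libraries. It moved by at least that SD in 32 checks and by less in 32. The checks with less movement include those that left out a library, which could not move it by this rule. These counts are therefore not an even split of the checks that were free to move. Leaving out a library left no residual degrees of freedom and so gave values with no test. Leaving out shared barcodes left classes empty and was not run. Low counts limit NRL and NFE2 most.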
